A study of Homo sapiens with 6 samples.

Results

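The 2 resistant endpoints HCC827-GR and H1975-OR were compared gene by gene, as the ratio of their RNA levels. Both are sublines of human lung cancer lines with a mutated epidermal growth factor receptor (EGFR), each selected for growth under an EGFR kinase inhibitor. The comparison used 2 of the 6 libraries of the series. It covered the 10521 of 21463 genes that had at least 10 CPM in 1 of the 2 libraries, where CPM is the exon read count relative to library size, after scaling of the libraries to each other. The pair had been put together because both sublines were said to have low CDH1 and EPCAM, so the levels of these genes are a description.

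The series holds 1 library each of the parental lines HCC827, PC9 and H1975 and of 1 resistant subline from each. HCC827 carries the EGFR mutation labelled E19Del, and HCC827-GR was selected from it with gefitinib, a reversible EGFR inhibitor. H1975 carries L858R/T790M, and H1975-OR was selected from it with osimertinib, a covalent inhibitor that also binds the T790M receptor. Drug concentrations were raised stepwise over 90 days, and IC50 values, which measure how much inhibitor is needed to lower viability, were then 4.288 to 12.485 µM over the 3 sublines, against 0.016 to 0.07 µM before. The labels call the parental cells nontreated. Whether a subline was a pool or 1 clone, and whether drug was present at harvest, is not given in the sources used here. Drug, EGFR mutation and line of origin cannot be told apart in this comparison. With 1 library for each subline there was no replicate check and no p-value, and each difference is one between these libraries.

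Carcinoma cells can lose cell adhesion and polarity genes and gain motility and matrix genes, a shift known as epithelial-mesenchymal transition. It is driven by repressors such as ZEB1, ZEB2 and SNAI2 and is one of the known states in which EGFR-mutant lung cancer cells tolerate EGFR inhibitors. Other receptor tyrosine kinases, among them AXL, MET and FGFR1, can feed the same pathways when EGFR is blocked.

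The HCC827-GR library held 29366085 exon reads and the H1975-OR library 28895315, and the parental libraries 28140012 (HCC827) and 21249637 (H1975). Uniquely mapping reads made up 90.8% to 91.7% of the exon reads of the 6 libraries. Mitochondrial genes took 6.62% of the reads of HCC827-GR and 4.67% of those of H1975-OR. A gene with 0 reads could have a level of up to 0.112 CPM in HCC827-GR and 0.0985 CPM in H1975-OR, the worth of 3 reads. Folds below are ratios of CPM, and a fold against 0 reads is a lower bound computed at that floor. Log2 ratios were taken after 1 CPM was added to both libraries, which makes them smaller for low genes, and a positive ratio means higher in HCC827-GR. Intervals and floors cover counting error only. Genes with under 80% unique reads in the library where they were higher are uncertain, since their reads can be shared with similar or overlapping genes. Of the genes named below these are COL18A1, PLAU, TFPI2, MMP24, SPINT2, TNC, ITGB3, ERBB3, FGF2, ETV4, JUNB, TGFB2, RNF43, XAF1, IFIT1, IFIT2, IFIT3, IRF1, IRF9, CDKN2A, RRM2, CA9, TUBB3, CT45A1 and MAGEA6, and PDGFRA with its single read. In CDK4, TSPAN31, ACSL5 and MUC1 the unique reads were under 80% in the lower library alone.

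Of the 10521 genes, 1907 were at least 2-fold higher in HCC827-GR (18.1%) and 1763 at least 2-fold higher in H1975-OR (16.8%), together 34.9%. The other 6851 lay within 2-fold. For every gene list below, 18.1% and 16.8% are the shares to set beside its counts. At 16-fold the counts were 234 and 121, and at 64-fold 35 and 14. The share of the 2-fold genes that was higher in HCC827-GR was 52.0%, but 38.6% with scaling by library size alone and 32.0% with the deposited TPM. These moved the median log2 ratio of all members from −0.01 to −0.21 and −0.34, so differences near 2-fold depend on the scaling. The members at the edge of the 10 CPM minimum were FN3K (10.0 CPM in HCC827-GR, 1.74 in H1975-OR), HSF4 and SPOCD1 just inside, and SERPINB9 (0 and 9.98), SH3YL1 and ADAM8 just outside.

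**Figure D1:**
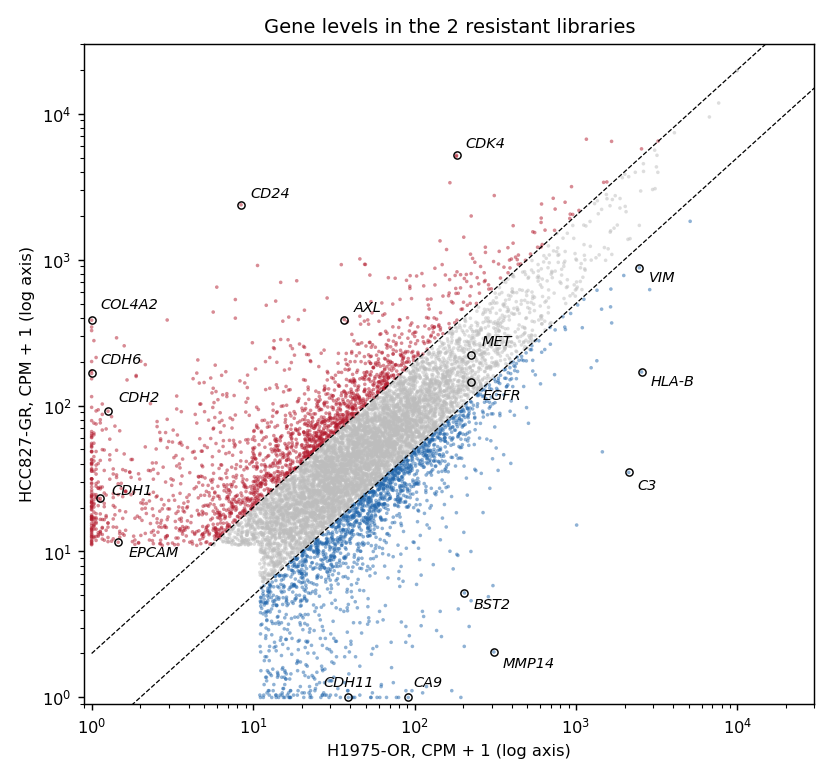
Level of each of the 10521 genes in H1975-OR (x axis) and HCC827-GR (y axis), both as CPM + 1 on log axes. Red points were at least 2-fold higher in HCC827-GR, blue points at least 2-fold higher in H1975-OR, and dashed lines mark 2-fold. COL4A2 and CDH6 lie on the left edge at 0 reads in H1975-OR, and CA9 and CDH11 on the lower edge at 0 reads in HCC827-GR.

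CDH1, which encodes the adherens junction protein E-cadherin (ENSG00000039068, hg38 chromosome 16, 68737225 to 68835548), was at 22.1 CPM in HCC827-GR and 0.131 CPM in H1975-OR. The second level rested on 4 reads, and the ratio of 168 has a 95% counting interval of 65.4 to 620. EPCAM, the epithelial cell adhesion molecule (ENSG00000119888, hg38 chromosome 2, 47345158 to 47387601), was at 10.6 and 0.46 CPM, a ratio of 23 (13.5 to 42.6). Both genes were thus below their parental levels of 467 and 432 CPM in HCC827 and 22.4 and 26.6 CPM in H1975. They were near the floor in H1975-OR alone, and CDH1 in HCC827-GR was at the level of parental H1975. PC9-GR, the third resistant subline, had CDH1 at 151 CPM and EPCAM at 732 CPM. In RNA from whole cultures, fewer cells with a transcript and less of it in each cell cannot be told apart. CDH1 and EPCAM have no entry in the promoter table used.

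ESRP1 and GRHL2, which regulate the epithelial state, were at or near the floor in both endpoints. ESRP1, a splicing factor of epithelial cells, had 0.187 CPM in HCC827-GR and 0 reads in H1975-OR, from 257 and 5.86 CPM in the parents. GRHL2, a transcription factor that maintains epithelial genes, had 0 and 0.0328 CPM, from 60.1 and 1.78 CPM. Simple keratins, the intermediate filaments of glandular epithelium, remained in both. KRT8 was at 944 CPM in HCC827-GR and 841 CPM in H1975-OR, and KRT18 at 757 and 508 CPM. KRT19 was at 744 and 74.9 CPM, KRT7 at 2745 and 311 CPM, and KRT80 at 544 and 27.8 CPM, so these 3 were higher in HCC827-GR. KRT17, a basal keratin, was the reverse with 1.54 and 30.6 CPM. Of the 6 measured genes in the keratin list, 3 were at least 2-fold higher in HCC827-GR and 1 in H1975-OR. Over all members the shares were 18.1% and 16.8%. Outside the list, KRT4 was at 114 CPM against 0 reads and KRT10 at 24.3 and 14.6 CPM.

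Junction and polarity genes were more often higher in HCC827-GR. Of 24 measured members, 11 were at least 2-fold higher there and 2 in H1975-OR, with a median log2 ratio of 0.94 against −0.01 over all members of the comparison. DSC2, a desmosomal cadherin, stood at 34.9 CPM in HCC827-GR and 0.197 CPM in H1975-OR. The polarity gene LLGL2 was at 58.1 and 1.67 CPM, and the tight junction gene OCLN at 33.1 and 0.952 CPM. The other way went CLDN1, a claudin of tight junctions, at 12.7 and 84.5 CPM, and PKP3, a desmosomal plaque gene, at 13.0 and 35.3 CPM. The parental ratio of this list was 1.49 at the median, with 14 members at least 2-fold higher in HCC827.

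Of 12 measured genes for epithelial identity and surface proteases, 10 were at least 2-fold higher in HCC827-GR and 2 in H1975-OR, with a median of 2.88. CD24, a glycosylated surface antigen, reached 2372 CPM in HCC827-GR and 7.42 CPM in H1975-OR, a ratio of 320. Its parental levels were 563 and 89.8 CPM, so it was above its parent in one subline and below it in the other. LAD1, a basement membrane anchoring gene, had 43.6 CPM against 1 read, a ratio of 1329 with an interval of 238 to 52529. SPINT2, an inhibitor of surface serine proteases, was at 268 and 8.90 CPM, with 56% unique reads and therefore uncertain. The secreted siderophore carrier LCN2 was at 116 and 6.63 CPM. The reverse was seen in MAL2, a gene of apical transport, at 0.187 CPM in HCC827-GR and 21.4 CPM in H1975-OR, although parental HCC827 had 347 CPM and parental H1975 17.1 CPM. MUC1, a membrane mucin, was at 1.09 and 12.9 CPM, from 146 and 49.8 CPM.

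Of the repressors of epithelial genes, ZEB1 and ZEB2 lay within 2-fold, and the SNAI genes lay further apart in opposite directions. ZEB1 was at 25.7 CPM in HCC827-GR and 50.1 CPM in H1975-OR, and ZEB2 at 32.4 and 61.1 CPM. With library size alone or the deposited TPM both were more than 2-fold higher in H1975-OR. In the parents the same genes were far apart, at 0.62 and 43.8 CPM for ZEB1 and at 0.219 and 10.2 CPM for ZEB2. SNAI2 was higher in HCC827-GR, at 28.2 against 10.4 CPM. SNAI1, of the same family, was higher in H1975-OR, at 2.17 against 13.5 CPM. TWIST1 had 1.05 CPM and 0 reads, and FOXC1, a forkhead factor, 2.70 and 20 CPM. HMGA2, a chromatin protein, was at 57.4 and 21.4 CPM, with a log2 ratio of 1.38 that was 0.92 with TPM. In all, 3 of 8 measured factors were at least 2-fold higher in HCC827-GR and 2 in H1975-OR, against 18.1% and 16.8% of all members. With library size alone 4 of the factors were at least 2-fold higher in H1975-OR.

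Mesenchymal markers split between the endpoints, with 9 of 23 at least 2-fold higher in HCC827-GR and 9 in H1975-OR. Over all members the shares were 18.1% and 16.8%. VIM, the intermediate filament vimentin, was at 878 CPM in HCC827-GR and 2470 CPM in H1975-OR, from 39.1 and 2121 CPM in the parents. The cadherins differed by member. CDH2, which encodes N-cadherin, was at 90.4 and 0.263 CPM, a ratio of 344 (174 to 798 from 8 reads in H1975-OR). CDH6 was at 165 CPM against 0 reads, at least 1672-fold higher in HCC827-GR. CDH11, a cadherin of mesenchymal cells, was the reverse, with 0 reads against 37.9 CPM, at least 337-fold higher in H1975-OR. Each endpoint thus had cadherins that were at or near 0 in the other.

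Other members of the list also went both ways. FBN1, the microfibril gene, was at 130 CPM in HCC827-GR and 4.66 CPM in H1975-OR, and CNN1, a smooth muscle calponin, at 13.7 and 0.263 CPM. The matrix glycoprotein TNC had a log2 ratio of −4.92, with 62% unique reads in H1975-OR and therefore uncertain. S100A4, a calcium-binding protein, was at 2.89 and 111 CPM. POSTN, a matrix protein, had 0 reads in HCC827-GR and 13.4 CPM in H1975-OR, and 0 reads in both parents. The list's median log2 ratio was −0.63, and it had been −1.69 between the parents, with 14 members at least 2-fold higher in H1975.

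**Figure D2:**
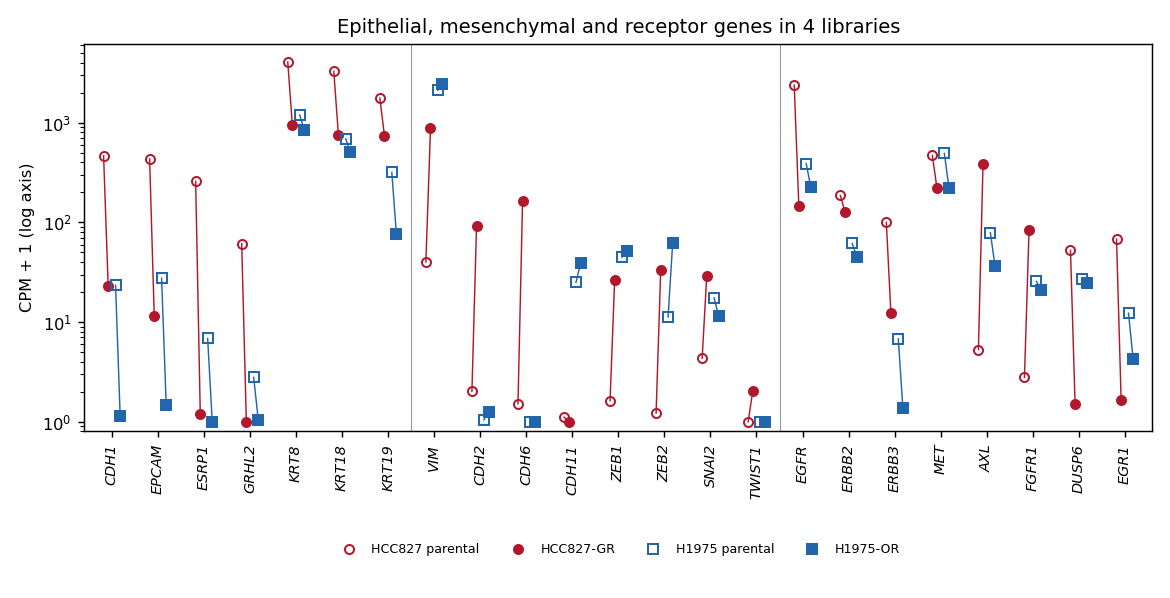
Levels of epithelial genes (left), mesenchymal genes (middle) and receptor and ERK output genes (right) in 4 libraries, as CPM + 1 on a log axis, with 1 point for each library. Open symbols are parental and filled symbols resistant libraries, red for HCC827 and blue for H1975, and lines join a subline to its parent. The filled symbols of ZEB1, ZEB2 and MET lie close together, while those of CDH2, CDH6 and CDH11 lie far apart.

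Of 17 measured collagens, 11 were at least 2-fold higher in H1975-OR and 4 in HCC827-GR, with a median log2 ratio of −1.27. The chains of collagen IV, the collagen of basement membranes, went both ways. COL4A2 had 383 CPM in HCC827-GR and 0 reads in H1975-OR, at least 3892-fold higher, and had the highest log2 ratio of the named genes, 8.59. COL4A1 had 75 and 0.131 CPM. The 2 genes lie head to head on chromosome 13 (hg38, 110305812 to 110513209 for COL4A2 and 110148963 to 110307233 for COL4A1), and both were low in parental H1975 too, at 0.0424 and 0.170 CPM. COL18A1, another basement membrane collagen, was at 783 and 154 CPM, with 66% unique reads and therefore uncertain. COL4A5 and COL4A6 were higher in H1975-OR, with log2 ratios of −1.18 and −2.87. Fibrillar and other collagens were mostly with H1975-OR. COL1A2, a chain of collagen I, was at 0.112 CPM in HCC827-GR, from 3 reads, and 87.5 CPM in H1975-OR, a ratio of 778 (266 to 3773). COL1A1, the partner chain, was at 19.6 and 126 CPM, COL27A1 at 0.262 and 72.9 CPM, COL16A1 at 0.750 and 18.7 CPM and COL8A1 at 45.0 and 356 CPM.

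Laminins, which build the basement membrane, and their integrin receptors went both ways. LAMB1 was at 531 CPM in HCC827-GR and 6.76 CPM in H1975-OR, LAMA5 at 697 and 13.8 CPM and LAMA3 at 124 and 4.89 CPM. LAMB3 was at 95.2 and 220 CPM, while LAMB2 and LAMC1 lay within 2-fold. ITGB4, the hemidesmosomal integrin chain, was at 152 and 3.25 CPM. ITGA2, a collagen receptor chain, was higher in H1975-OR at 10.5 against 98.4 CPM, as was ITGAV at 84.3 against 337 CPM. ITGA11, a receptor chain for fibrillar collagen, had 2 reads against 15.6 CPM. ITGB3 had 6% unique reads and its log2 ratio of −1.52 is uncertain. Of 19 measured members, 7 were at least 2-fold higher in HCC827-GR and 5 in H1975-OR, against 18.1% and 16.8% of all members.

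Proteases of the matrix and their inhibitors had a median log2 ratio of 1.82, with 7 of 14 at least 2-fold higher in HCC827-GR and 2 in H1975-OR. SERPINE2, an inhibitor of thrombin and urokinase, was at 325 CPM in HCC827-GR with 0 reads in H1975-OR, at least 3301-fold higher. ADAMTS1, a secreted metalloprotease, was at 172 CPM against 0 reads, and the membrane protease ADAM19 at 48.8 against 0.164 CPM. The urokinase gene PLAU was at 922 and 34.2 CPM and the protease inhibitor TIMP2 at 775 and 92.9 CPM. MMP14, the membrane-anchored matrix metalloprotease, went the other way with 1.05 and 309 CPM, a ratio of 294. TFPI2, a Kunitz inhibitor of matrix proteases, was at 0.300 and 29.3 CPM with 61% unique reads. MMP24 had 18% unique reads and a log2 ratio of 5.23. Between the parents the median of this list was −0.28.

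EGFR itself was similar in the endpoints, at 145 CPM in HCC827-GR and 224 CPM in H1975-OR, from 2383 and 389 CPM in the parents. The other measured receptors of the family, ERBB2 and ERBB3, were higher in HCC827-GR. ERBB2 was at 127 and 43.7 CPM. ERBB3, a kinase-impaired partner receptor, was at 11.2 and 0.361 CPM with 61% unique reads in HCC827-GR. Among the ligands, EREG was at 127 and 15.6 CPM, AREG at 13.8 and 2.66 CPM, BTC at 10.9 and 1.67 CPM and HBEGF at 54.4 and 17.7 CPM. NRG1, a ligand of ERBB3, lay within 2-fold at 93.1 and 117 CPM. Of 8 measured members, 6 were at least 2-fold higher in HCC827-GR and 0 in H1975-OR, with a median of 1.79, close to the parental 2.03.

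Other receptor tyrosine kinases and their ligands were also higher in HCC827-GR, with 20 of 30 measured members at least 2-fold higher there, 0 in H1975-OR and a median log2 ratio of 1.95. Between the parents the median was 0.02. AXL was at 387 CPM in HCC827-GR and 35.7 CPM in H1975-OR, from 4.30 and 77.8 CPM, so the order of the lines was turned. GAS6 and PROS1, ligand genes of the AXL receptor family, were at 52.1 and 4.01 CPM and at 215 and 47.9 CPM. FGFR1 was at 83.3 and 20 CPM, from 1.79 and 24.6 CPM. FGFR3 was at 23.2 and 2.20 CPM and FGFR4 at 56.8 and 6.14 CPM.

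Several growth factor genes were on the same side. FGF5 had 21.4 CPM in HCC827-GR and 0 reads in H1975-OR, PDGFB 24.5 and 0.821 CPM, and the lymphatic growth factor VEGFC 35.6 CPM against 2 reads. FGF2 had 7% unique reads and a log2 ratio of 4.24. The stem cell factor receptor KIT was at 11.7 and 0.0657 CPM and the ephrin receptor EPHB2 at 227 and 25.4 CPM. MET, the receptor for hepatocyte growth factor, was alike at 219 and 223 CPM, as it was between the parents (470 and 492 CPM). Its ligand gene HGF had 1 read and 0 reads.

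Genes that report ERK signalling were lower in HCC827-GR at the median (−0.73), with 7 of 17 measured members at least 2-fold higher in H1975-OR and 1 in HCC827-GR. The ERK phosphatase DUSP6 was at 0.487 CPM in HCC827-GR and 23.8 CPM in H1975-OR, a ratio of 48.9, from 51.4 and 26.3 CPM in the parents. DUSP4 was at 8.29 and 26.6 CPM, and the ETS factors ETV1, ETV4 and ETV5 at 0.787 and 11.6, 3.71 and 10.7, and 11.2 and 29.3 CPM. The immediate-early gene EGR1 was low in both, at 0.637 and 3.28 CPM. JUNB, an AP-1 gene, had almost no unique reads, so its log2 ratio of −2.98 is uncertain. FOSL1, also an AP-1 gene, went the other way with 183 and 71.6 CPM, a log2 ratio of 1.34 that was 0.99 with TPM.

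YAP/TEAD targets had a median of 1.61, with 12 of 20 at least 2-fold higher in HCC827-GR and 1 in H1975-OR, against a parental median of −0.41. CYR61, a matricellular protein, was at 3361 CPM in HCC827-GR and 165 CPM in H1975-OR. The tissue factor gene F3 was at 927 and 48.1 CPM, AMOTL2, a YAP-binding angiomotin, at 408 and 44.9 CPM and CTGF at 124 and 23.5 CPM. TEAD1, one of the DNA-binding partners, was at 106 and 221 CPM. AXL and TGFB2 are members of this list as well as of others.

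In the TGF-beta and BMP list 5 of 21 measured members were at least 2-fold higher in HCC827-GR and 7 in H1975-OR, against 18.1% and 16.8% of all members. The activin antagonist FST had 16.8 CPM in HCC827-GR and 0 reads in H1975-OR, and the activin subunit INHBA 107 and 18.1 CPM. TGFB2 was at 431 and 53.6 CPM with 68% unique reads, and BMP4 at 26.4 and 7.98 CPM. Higher in H1975-OR were LTBP1, a latent TGF-beta binding protein, at 0.862 and 23.9 CPM, the co-receptor TGFBR3 at 1.12 and 18.1 CPM, BMP2 at 6.90 and 50.3 CPM and ID4 at 1.27 and 22.0 CPM. Both sides thus held ligands of the family. In the Wnt list the counts were 5 and 3 of 15, against 18.1% and 16.8% of all members. The Wnt antagonist DKK3 was at 71.3 and 0.394 CPM, WNT7B at 86.0 and 3.38 CPM, WNT5A at 26.7 and 3.45 CPM, and WNT5B at 20.6 CPM against 0 reads. RNF43, a ligase that removes Wnt receptors, had a log2 ratio of −3.68 with almost no unique reads. FZD1 and LRP5, both Wnt receptors, had log2 ratios of −1.40 and −1.12.

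Interferon-stimulated genes were the list with the lowest median among those of at least 7 measured members, at −2.46. Of 29 measured members, 23 were at least 2-fold higher in H1975-OR and 2 in HCC827-GR. Interferon-stimulated gene factor 3, a complex that includes STAT2 and IRF9, binds a promoter element built on a repeated GAAA core. Of 30 listed genes 22 had a promoter in the RefSeq table (GRCh38.p14), and 16 of these (72.7%) held GAAANNGAAA or its other strand TTTCNNTTTC in the 250 bases before a transcript start. Over all 27305 genes with a window the share was 3.71%. The stretches below show a match to this motif in capitals, with 20 bases on each side. They are from 6 members that lie at different places in the order of ratios. In IFI27, IFIT1, IFITM3 and ISG15 a further match within the stretch is wholly or partly in lower case. A match is a description of letters, not a measured binding site.
IFI27, chr14:94110608-94110657, plus strand: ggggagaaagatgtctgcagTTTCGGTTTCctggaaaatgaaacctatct
IFIT1, chr10:89392487-89392536, plus strand: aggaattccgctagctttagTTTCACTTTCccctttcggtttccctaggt
IFI6, chr1:27672319-27672368, minus strand: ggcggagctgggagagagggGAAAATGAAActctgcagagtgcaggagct
IFITM3, chr11:320866-320915, minus strand: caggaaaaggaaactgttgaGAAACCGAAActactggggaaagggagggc
MX1, chr21:41431834-41431883, plus strand: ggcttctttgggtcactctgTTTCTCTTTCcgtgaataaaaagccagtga
ISG15, chr1:1013370-1013419, plus strand: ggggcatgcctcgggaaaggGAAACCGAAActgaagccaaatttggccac

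IFI27, a membrane protein strongly induced by interferon, was at 2.89 CPM in HCC827-GR and 143 CPM in H1975-OR, a ratio of 49.6. Its parental levels were alike, at 78.5 and 73.0 CPM. BST2, which tethers budding virus, was at 4.20 and 203 CPM, and OAS2, a synthetase of the RNase L pathway, at 1.65 and 91.9 CPM. RSAD2, the antiviral radical enzyme viperin, had 0 reads and 21.5 CPM. The RNA sensor IFIH1 was at 2.92 and 37.4 CPM. These genes were low in HCC827-GR and high in H1975-OR, whereas XAF1 (26% unique reads in H1975-OR) and IFIT1, IFIT2 and IFIT3 (11%, 5% and 9%) are uncertain, with log2 ratios of −4.99, −2.71, −2.84 and −2.39.

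Further down the order the gap was smaller. IFI6 was at 14.1 and 82.0 CPM, the membrane restriction factor IFITM3 at 70.3 and 313 CPM and the dynamin-like GTPase MX1 at 22.1 and 81.3 CPM. ISG15, a ubiquitin-like modifier whose promoter also held the motif, was within 2-fold at 53.8 and 66.4 CPM. STAT2 and IRF7, 2 of the regulators, were the members at least 2-fold higher in HCC827-GR, at 66.2 and 29.6 CPM and at 22.9 and 6.86 CPM, though the log2 ratio of STAT2 was 1.14 and under 1 with library size alone (0.93) or TPM (0.79). The median of the list was −0.44 between the parents. It was −0.59 for HCC827-GR over HCC827 and 0.90 for H1975-OR over H1975, and these share the resistant libraries with the comparison.

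**Figure D3:**
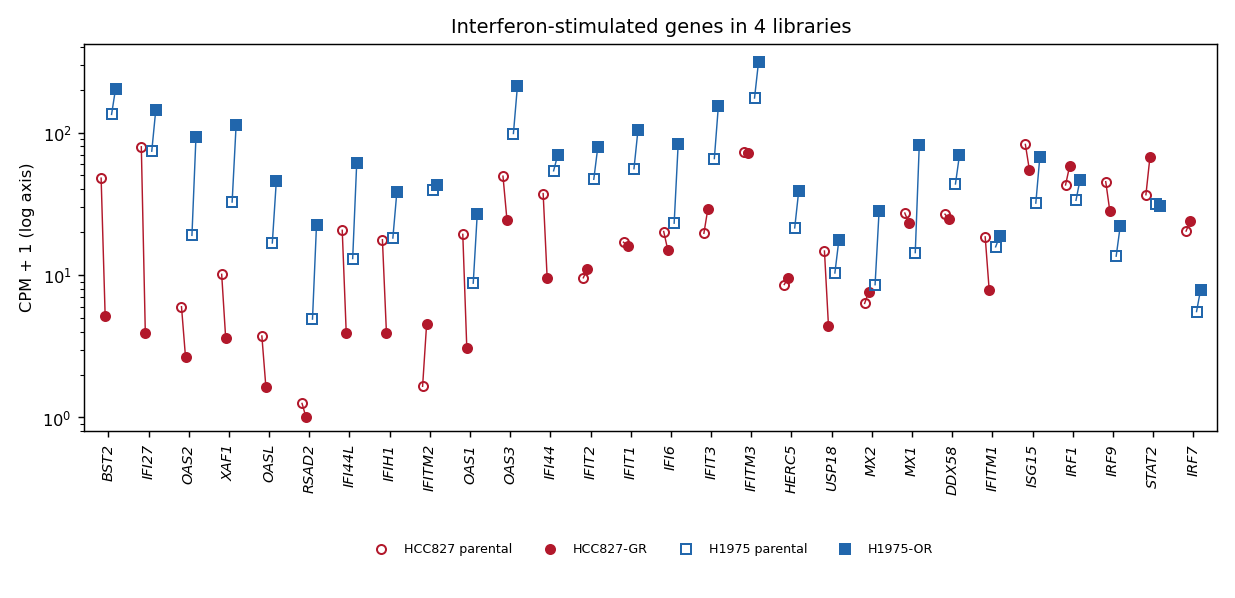
Levels of measured interferon-stimulated genes in 4 libraries, as CPM + 1 on a log axis, ordered from the lowest to the highest ratio of HCC827-GR over H1975-OR. Open symbols are parental and filled symbols resistant libraries, red for HCC827 and blue for H1975. From BST2 to ISG15 the filled blue symbol lies above the filled red one, and from IRF1 to IRF7 below it.

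Antigen presentation genes lay on the same side, with 10 of 19 measured members at least 2-fold higher in H1975-OR and 3 in HCC827-GR and a median of −1.07. The class I heavy chain HLA-B was at 169 CPM in HCC827-GR and 2547 CPM in H1975-OR, HLA-F at 9 and 54.5 CPM, and the light chain B2M at 367 and 1663 CPM. NLRC5, the transactivator of class I genes, was at 6.90 and 81.6 CPM. The class II invariant chain CD74 was at 0.337 and 23.1 CPM, from 0.547 and 72.7 CPM. CD274, the checkpoint ligand PD-L1, was the reverse at 29.2 and 9.23 CPM. PSMB10, an immunoproteasome subunit, and the checkpoint molecule CD276 had log2 ratios of 1.16 and 1.12, under 1 with library size alone (0.95 and 0.91). The heavy chain genes are similar in sequence, so their reads may be split.

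Of 18 measured NF-kB inflammatory genes, 4 were at least 2-fold higher in H1975-OR and 2 in HCC827-GR, which is close to the shares over all members (16.8% and 18.1%). The median was −0.59, and with library size alone the counts were 7 in H1975-OR and 0 in HCC827-GR. The cytokine IL32 was at 9.03 and 165 CPM, the apoptosis inhibitor BIRC3 at 17.5 and 265 CPM, the chemokine CCL2 at 30.8 and 209 CPM, and RELB, an NF-kB subunit, at 12.5 and 34.3 CPM. IL11 and CXCL5 were the 2 members at least 2-fold higher in HCC827-GR, with log2 ratios of 1.14 and 1.01 that fell under 1 with library size alone (0.95 and 0.80). Both ratios are therefore at the edge of 2-fold.

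Metabolic and drug-handling genes differed by gene more than by list. In the NRF2, glutathione and aldehyde list 5 of 20 members were at least 2-fold higher in HCC827-GR and 7 in H1975-OR, against 18.1% and 16.8% of all members. ALDH1A1, an aldehyde dehydrogenase, was at 34.5 CPM against 0 reads, at least 350-fold higher in HCC827-GR, from 0.146 and 0.0849 CPM in the parents. NQO1, a quinone reductase, was at 26.1 and 292 CPM, and the aldo-keto reductases AKR1C1 and AKR1B1 at 4.76 and 80 CPM and at 621 and 2861 CPM. The cystine transporter SLC7A11 was at 14.5 and 55.5 CPM. AKR1C1 has near-identical paralogs, which can share its reads.

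Among 8 measured drug efflux transporters the median was 1.1, with 5 at least 2-fold higher in HCC827-GR and 2 in H1975-OR. Over all members the shares were 18.1% and 16.8%. With library size alone the list counts were 3 and 3. ABCB1, which encodes P-glycoprotein, was at 52.7 CPM in HCC827-GR with 0 reads in H1975-OR and in its parent, at least 535-fold higher. ABCG2, the breast cancer resistance protein, was at 1.24 and 57.3 CPM, from 8.67 and 77.3 CPM. Each endpoint thus had one of these 2 transporters above 50 CPM and the other near 0. ABCC3 was at 149 and 27.8 CPM and ABCC4 at 127 and 48.2 CPM.

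Of 21 measured cholesterol synthesis genes, 5 were at least 2-fold higher in HCC827-GR and 4 in H1975-OR, which is close to the shares over all members (18.1% and 16.8%). TM7SF2, a sterol reductase, was at 15.9 and 0.558 CPM. SC5D, IDI1 and SQLE, other enzymes of the pathway, were at 13.2 and 52.1, 10.8 and 35.7, and 19.8 and 59.1 CPM. Of 15 fatty acid synthesis genes, 1 was at least 2-fold higher in HCC827-GR and 5 in H1975-OR, against 18.1% and 16.8% of all members. The acyl-CoA synthetase ACSL5 was at 6.30 and 79.1 CPM, the elongase ELOVL6 at 42.8 and 190 CPM, and the desaturase SCD5 at 13.8 and 3.88 CPM.

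In the glycolysis and hypoxia list the counts were 5 and 8 of 29, against 18.1% and 16.8% of all members. The glucose transporters SLC2A1 and SLC2A3 had opposite orders, at 656 and 92.5 CPM and at 1.80 and 37.3 CPM. HK2, a hexokinase, was at 20 and 152 CPM. EGLN3, an oxygen sensor, was at 11 and 144 CPM. CA9, the hypoxia-induced carbonic anhydrase, had 0 reads in both HCC827 libraries and 90.4 CPM in H1975-OR, with 73% unique reads.

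Cell cycle genes had a median of −0.41, with 9 of 30 at least 2-fold higher in H1975-OR and 0 in HCC827-GR. The proliferation marker MKI67 was at 140 and 602 CPM, the kinesin KIF11 at 37.5 and 178 CPM and the kinase CDK1 at 45.5 and 150 CPM. All 3 lie on chromosome 10, where the median of all members was −0.75. RRM2 had 12% unique reads in H1975-OR and a log2 ratio of −1.40. Other mitotic and replication genes were alike, such as TOP2A at 598 and 533 CPM, PLK1 at 110 and 112 CPM and MCM2 at 163 and 161 CPM.

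In the list for G1 control and p53 targets 5 of 16 were at least 2-fold higher in HCC827-GR and 1 in H1975-OR. Over all members the shares were 18.1% and 16.8%. With library size alone the list counts were 3 and 2. CDK4, the G1 kinase (chromosome 12), was at 5182 CPM in HCC827-GR and 181 CPM in H1975-OR, a ratio of 28.6, and its parental levels were almost the same, at 4243 and 179 CPM. Neighbours shared this pattern, with log2 ratios of 5.33 for TSPAN31 and 4.81 for OS9, both near CDK4 on that chromosome. PHLDA3, a p53 target, had 92.5 CPM against 3 reads. CDKN2A was at 212 and 11.7 CPM with 50% unique reads. CDKN1C, a CDK inhibitor, was at 11 and 0.854 CPM.

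The BCL2 family had a median of 0.79, with 4 of 11 at least 2-fold higher in HCC827-GR and 1 in H1975-OR. Over all members the shares were 18.1% and 16.8%. The anti-apoptotic BCL2L1 was at 385 and 50.3 CPM. Among pro-apoptotic members, BMF was at 64.6 and 5.29 CPM, PMAIP1 at 104 and 27.7 CPM and BID at 5.44 and 43.7 CPM. In the list for endoplasmic reticulum stress and ATF4 targets the counts were 6 and 2 of 16, against 18.1% and 16.8% of all members. VLDLR, a lipoprotein receptor, was at 49.4 and 1.51 CPM and the stress factor ATF3 at 22.9 and 5.16 CPM. XBP1 and CREB3L1, factors of the secretory pathway, were at 64.9 and 218 CPM and at 14.5 and 51.4 CPM.

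Lineage genes set the endpoints apart as they did the parents. Of 7 measured alveolar and airway genes, 5 were at least 2-fold higher in HCC827-GR and 2 in H1975-OR, with a median of 4.45 (3.90 between the parents). NKX2-1, the master factor of lung epithelium, was at 121 CPM in HCC827-GR and 4.56 CPM in H1975-OR, and the pioneer factor FOXA1 at 41.1 and 0.131 CPM. The aspartic protease NAPSA was at 28.9 CPM against 3 reads, from 289 and 0.552 CPM. GATA6 and the lipid transporter ABCA3 were higher in H1975-OR, at 5.62 and 28.4 CPM and at 70.5 and 172 CPM. The surfactant gene SFTPB was under 0.05 CPM in both endpoints. H1975-OR thus had little of NKX2-1, NAPSA and SFTPB, which mark lung adenocarcinoma.

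Short lists of other lineages had few measured members. Of 34 listed HOX genes 4 were measured, and all 4 were at least 2-fold higher in HCC827-GR. Among them were HOXB7 at 16.3 CPM and HOXB2 at 13.3 CPM, both with 0 reads in H1975-OR and its parent. HOXA3 was at 30.3 and 0.296 CPM. HOXB7, HOXB2 and HOXA3 reached the 10 CPM minimum in HCC827-GR alone, which by itself places them on that side. Of 3 mucin and secretory genes, MUC16 was at 157 and 0.887 CPM, while WFDC2 was at 0.375 and 14.1 CPM. The 2 measured squamous markers were DSC3, a desmosomal cadherin, at 61.1 CPM against 0 reads, and S100A2, with a log2 ratio of 1.16 that was 0.96 with library size alone. Among 4 neural markers, 2 were at least 2-fold higher on each side, with L1CAM, a neural adhesion molecule, at 0.150 and 32.5 CPM and the filament gene NES at 5.25 and 83.9 CPM. TUBB3 had 10% unique reads.

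Markers of other cell types were mostly at or near 0. Of 14 leukocyte markers 3 were measured, 0 at least 2-fold higher in HCC827-GR and 1 in H1975-OR (CD14, at 1.09 and 11.6 CPM), and their summed level was 191 CPM in HCC827-GR and 143 CPM in H1975-OR, within 143 to 787 CPM over the 6 libraries. PTPRC, the pan-leukocyte marker, was at 0.187 CPM and 0 reads. CD14 and PTPRC thus held little of these sums. The 2 other measured leukocyte markers lay within 2-fold and are not named here, and 8 of the 14 were under 1 CPM in all 6 libraries. Of 12 endothelial markers 2 were measured and both were higher in H1975-OR, ENG at 23.2 and 84.6 CPM and ROBO4 at 1 read and 14.1 CPM. The summed levels were 30.5 and 105 CPM, and PECAM1 was at 0.0375 and 1.25 CPM. The 3 measured fibroblast markers of 13 were COL1A1, COL1A2 and POSTN, all higher in H1975-OR, with sums of 25.8 and 238 CPM (16.2 to 238 over the 6 libraries). The defining markers PDGFRA, DCN and LUM were at 0.0375 CPM and 0 reads, at 0.112 and 0.0985 CPM, and at 2.70 and 0.230 CPM. The part of other cell types in the collagen values was not tested.

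Of 15 reference genes, 3 were at least 2-fold higher in HCC827-GR and 2 in H1975-OR, which is close to the shares over all members. GAPDH was at 6485 and 3226 CPM, with a log2 ratio of 1.01 that was 0.79 with library size alone and 0.65 with TPM. RPLP0 and RPL13A, ribosomal protein genes, had 1.19 and 1.09, again under 1 with library size alone (0.97 and 0.88). The transferrin receptor TFRC was at 340 and 1093 CPM.

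**Figure D4:**
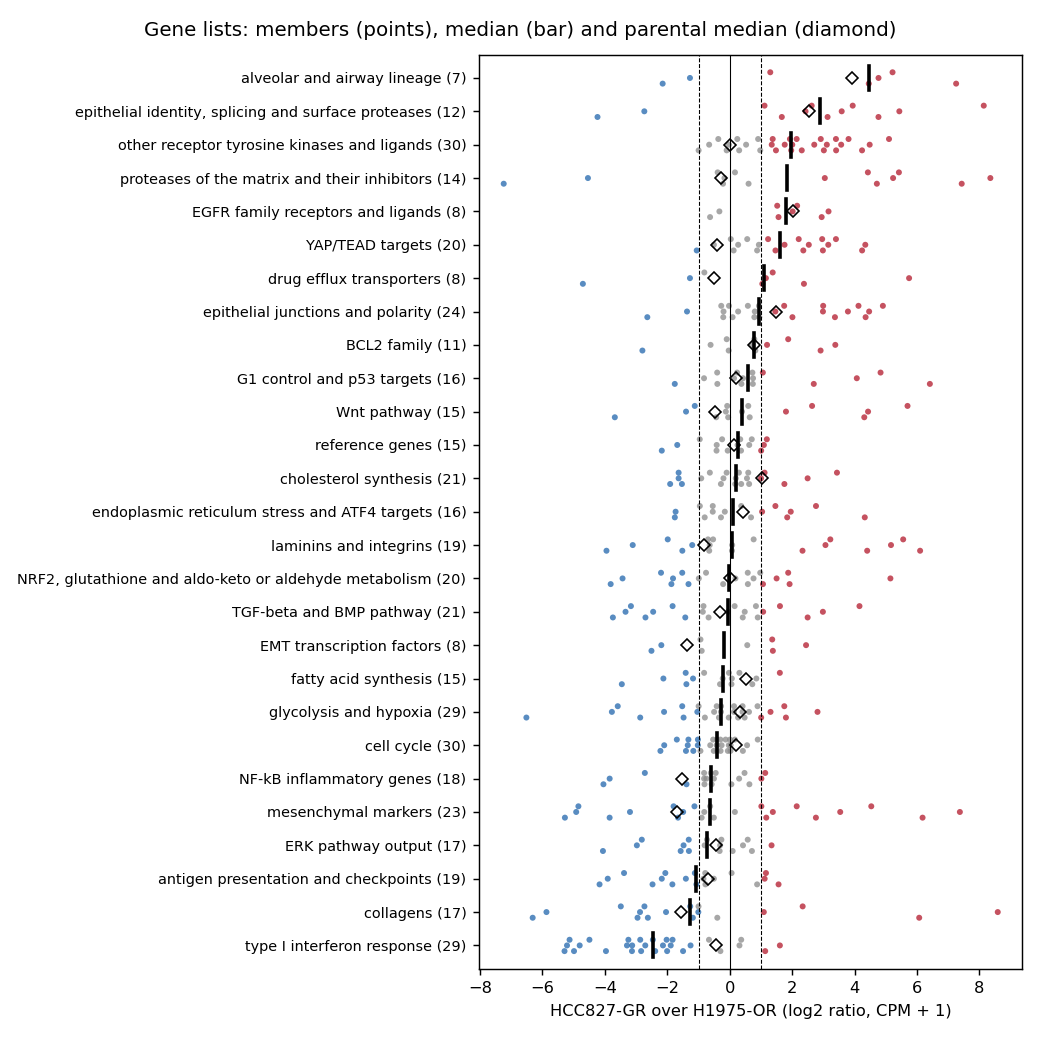
Log2 ratios of HCC827-GR over H1975-OR (x axis, after adding 1 CPM) for the members of the 27 gene lists with at least 7 measured members, with the number measured in parentheses. Points are genes, red or blue where at least 2-fold higher in HCC827-GR or H1975-OR, bars are list medians and diamonds the medians between the parental lines. The interferon list lies lowest at −2.46, and the receptor tyrosine kinase list has its bar at 1.95 and its diamond at 0.02. The bars of the cholesterol, endoplasmic reticulum stress, laminin and integrin, reference and NRF2 lists lie near 0 and change sign under 1 or more of the other scalings.

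The genes furthest apart in either direction were of several kinds. Beside those above, NRK, a Nik-related kinase, was at 344 CPM in HCC827-GR with 0 reads in H1975-OR, and FOLR1, the folate receptor, at 277 CPM against 1 read. SLAMF7, a surface receptor, was at 290 and 0.427 CPM, and the adaptor BEX3 at 212 CPM against 2 reads. EDN2, which encodes endothelin-2, was at 256 and 0.591 CPM, and the growth factor midkine (MDK) at 384 and 1.94 CPM. In H1975-OR, NRK, FOLR1 and BEX3 were under the floor, and SLAMF7, EDN2 and MDK were low but above it.

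On the other side, TDRD9, a helicase of the piRNA pathway, had 0 reads in HCC827-GR and 193 CPM in H1975-OR, at least 1713-fold higher. The secreted C1QTNF1 had 3 reads and 169 CPM, OLFM1 2 reads and 111 CPM, and OLR1, a receptor for oxidised lipoprotein, 3 reads and 95.4 CPM. The dynein DNAH2 was at 1.24 and 202 CPM and the secreted protease HTRA1 at 2.06 and 217 CPM. ROBO1, a SLIT receptor, and GNG11, a G protein subunit, had 0 reads in HCC827-GR and 66.1 and 60.0 CPM in H1975-OR. Complement component C3 was high in H1975-OR at 2123 CPM and present in HCC827-GR at 33.8 CPM, and CYP1B1, a cytochrome P450, was at 1009 and 14.2 CPM in the same order.

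The parental libraries, which share no library with the resistant pair, gave the difference that the lines had before selection. Between HCC827 and H1975, 3669 of 10567 genes were at least 2-fold apart (34.7%), against 3670 (34.9%) between the endpoints. Of the 3670, 2041 (55.6%) were already at least 2-fold apart in the same direction between the parents. The share was 52.1% (993 genes) of those higher in HCC827-GR and 59.4% (1048 genes) of those higher in H1975-OR. Another 662 genes (18%) had parents within 0.5 of each other on the log2 scale, 393 of them higher in HCC827-GR and 269 higher in H1975-OR. The order of the lines was turned, with at least 2-fold each way, in 88 genes now higher in HCC827-GR and 20 now higher in H1975-OR. Seen from the parents, 1870 of the 3669 (51.0%) were still at least 2-fold apart in the same direction, 550 (15%) lay within 0.5 on the log2 scale at the endpoint, and 382 were under 10 CPM in both endpoints. The shares with like, same-way or turned parents over all members of the comparison are not given here. These counts are therefore a description of the 2-fold genes alone.

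**Figure D5:**
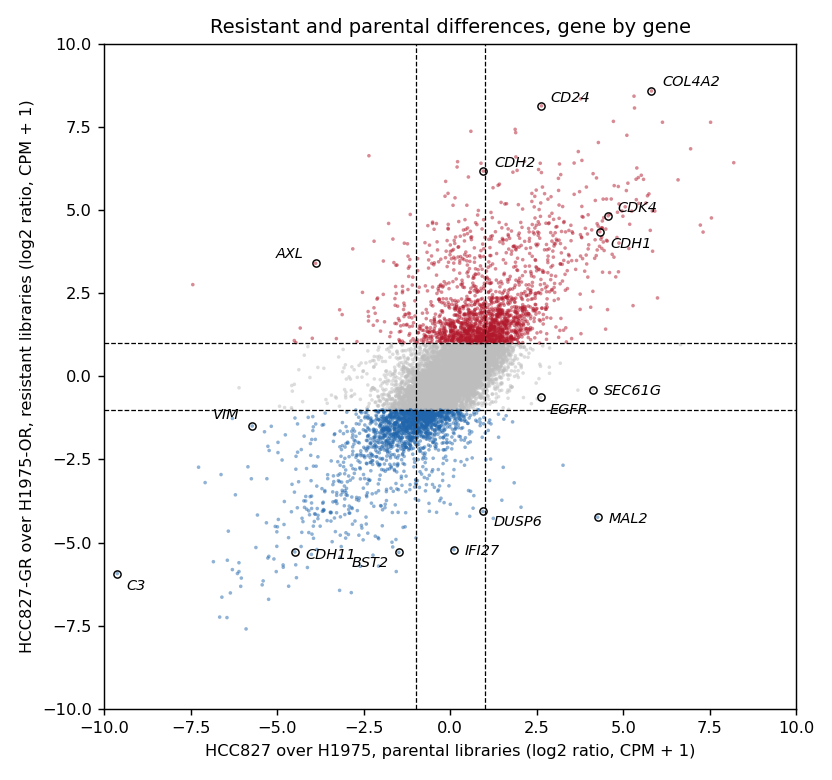
Log2 ratio between the parental libraries (x axis, HCC827 over H1975) and between the resistant libraries (y axis, HCC827-GR over H1975-OR) for the 10521 genes, both after adding 1 CPM. Colours are those of the endpoint difference and dashed lines mark 2-fold. CDK4 and COL4A2 lie far from 0 on both axes, AXL and MAL2 in the corners of opposite sign, and SEC61G near 0 on the y axis alone.

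Among genes that kept a large difference, DSCAML1 and TSPYL5 had 0 reads in both H1975 libraries and 59.9 and 65.3 CPM in HCC827-GR, and the keratin KRT4 had 1 read in parental H1975 and 0 reads in H1975-OR. DHRS2, a short-chain dehydrogenase, was at 3.90 CPM in HCC827-GR and 286 CPM in H1975-OR, from 4.66 and 390 CPM. VAMP5, a vesicle fusion protein, was at 82.9 and 0.328 CPM. In these genes the order of the endpoints was that of the parents.

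Genes with like parents and different endpoints made another group. MME, the membrane endopeptidase neprilysin, was at 101 CPM in HCC827-GR and 0.164 CPM in H1975-OR, from 0.255 and 0.0849 CPM. FAM49A had 77.8 CPM against 0 reads, PTH1R, the parathyroid hormone receptor, 66.9 and 0.164 CPM, and the tubulin TUBB4A 45.0 and 0.296 CPM. SESN3, a stress-induced sestrin, was at 27.0 CPM against 2 reads, from 12.2 and 8.87 CPM. In the other direction, RAB17, a small GTPase of epithelial trafficking, was at 1.31 and 39.4 CPM, from 24.2 and 21.1 CPM. IL27RA, a cytokine receptor chain, was at 1.76 and 46.0 CPM, and ADGRG1, an adhesion receptor, at 1.42 and 31.4 CPM. The matrix protein EFEMP1 was at 13.7 and 156 CPM, from 124 and 158 CPM. TMPRSS2, a surface serine protease, was at 0.675 and 20.3 CPM, from 2.30 and 2.97 CPM. For RAB17, IL27RA, ADGRG1 and EFEMP1 the level in H1975-OR was within 2-fold of its parent and the level in HCC827-GR was below its parent.

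Few genes turned their order by 4-fold or more on each side. TENM2, a teneurin, was at 200 CPM in HCC827-GR and 1.02 CPM in H1975-OR, from 0.875 and 8.57 CPM in the parents, and the scaffold AKAP12 at 114 and 5.88 CPM, from 3.28 and 18.7 CPM. CLU, which encodes the chaperone clusterin, was at 119 and 19.8 CPM, from 5.39 and 36.2 CPM. GALNT3, a glycosyltransferase, was turned the other way with MAL2, at 3 reads in HCC827-GR and 16 CPM in H1975-OR, from 90.1 and 21.1 CPM. Among the 8983 members that met the conditions for single genes (protein coding, at least 80% unique reads), 9 turned towards HCC827-GR in this way and 2 towards H1975-OR.

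Some genes that were far apart between the parents were alike at the endpoints. IGFN1 was at 107 CPM in HCC827-GR and 136 CPM in H1975-OR, from 0.474 and 101 CPM. HEG1, a membrane protein known from endothelial junctions, was at 200 and 204 CPM, from 13.6 and 242 CPM, and the GTPase-activating proteins ARHGAP31 and DLC1 at 50.2 and 43.5 CPM and at 50.8 and 41.9 CPM. IGFBP7 was at 65.8 and 55.4 CPM. In all 5 the level in HCC827-GR was above that of its parent and within 0.5 of H1975-OR on the log2 scale. SEC61G and LANCL2, neighbours of EGFR on chromosome 7, were at 72.1 and 96.0 CPM and at 26.6 and 35.8 CPM, from 2377 and 135 CPM and from 478 and 36.2 CPM. LSR, a tricellular junction gene, was at 14.3 and 10.6 CPM, from 153 and 16 CPM. For these 3 the HCC827 level had come down.

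The differences were not spread evenly over the chromosomes. On chromosome 10, 39.9% of 406 members were at least 2-fold higher in H1975-OR and 7.64% in HCC827-GR, with a median log2 ratio of −0.75, and the parental median there was −0.77. On chromosome 2 the shares were 28.7% and 8.21%, with a median of −0.56 against 0.06 between the parents. Chromosomes 17 and 20 were on the other side, with 29.4% and 29.2% of members at least 2-fold higher in HCC827-GR. The copy number of these chromosomes was not analysed here.

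Intron reads were not used for the choice of genes, but they come from the same libraries and are no separate check. They made up 5.70% of reads in HCC827-GR and 9.20% in H1975-OR (5.96% and 9.36% in the parents), and the median log2 ratio of intron reads over 9903 members with at least 20 of them was −0.85. Relative to that median, intron reads were higher in the same direction for 96.7% of 1707 genes that were at least 2-fold higher in HCC827-GR and for 93.8% of 1678 that were higher in H1975-OR. They differed at least 2-fold in 71.3% and 62.0%. Without that centring the shares at 2-fold were 39.6% and 91.3%. A gene needed its 20 intron reads in only 1 library, so it could enter through the library in which it was higher. Shares for members within 2-fold are not given here, so these values are a description.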

How the data were processed

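Per the labels' protocols, RNA was extracted with GENEzol and libraries were made with a TruSeq stranded mRNA kit. Per the submitters' processing notes, Trimmomatic, Bowtie2 and the genome build hg38 were used, with no version. The sources used here do not give the counting tool, its strand setting or the annotation, so reads of overlapping antisense genes may not be separated. Per the file headers, the authors deposited whole-number counts of total, uniquely mapping and intron reads for each gene, without normalization, and TPM, computed by the authors from exon reads and gene length.

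Total exon reads were scaled by TMM (edgeR 4.0.16 in R 4.3.3) over the 6 libraries, on the 13541 genes that passed filterByExpr with a minimum count of 10 and a minimum total of 15. By the labels there was 1 library for each line and state, and filterByExpr took the parental and resistant states as its groups. Log2 ratios used CPM with 1 added. Genes with at least 10 CPM in either library were members. No test was possible, so called means at least 2-fold. Some ratios with few reads in 1 library are given with 95% Clopper-Pearson intervals, and a gene without reads was given an upper limit of 3 reads. The ratio was computed on simulated counts with known folds. These had counting error alone and few changed genes, balanced in direction, so they cannot decide between the scalings. Python 3.11.15, pandas 2.3.3 and scipy 1.17.1 were used.

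The members and the 35 gene lists (763 genes, all matched) were chosen with earlier results of these data known. A fixed rule named genes: the 12 highest and 12 lowest ratios, up to 4 members of each list in each direction, 19 genes given in every library, genes with like parents, with the same or with turned parental order, 10 genes alike at the endpoint only, and the edge of the 10 CPM minimum. Single genes had to be protein coding with at least 80% unique reads outside the lists. Other members named within a list, and TSPAN31, OS9 and KRT10, were chosen after their values were seen. Named genes under 80% unique reads are listed as uncertain. Not every gene taken by the rule is described.

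The alternatives were library size alone, relative log expression factors, TMM over the pair alone, deposited TPM, uniquely mapping reads, pseudocounts of 0.1 and 5, minimums of 1 and 50 CPM, and protein coding genes alone. The pair shares HCC827-GR and H1975-OR with the comparisons within each line, whose values are given side by side only. A few genes are not reported here by name; they remain in the counts and medians.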

Additional observations from a re-analysis of the deposited data

Results flagged for a closer look

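In 3 of the genes in the lists, each with at least 10 CPM in both lines, the resistant library differed at least 4-fold from its parent in opposite directions in the 2 lines. These were CD24, with a log2 ratio of 2.07 for HCC827-GR over HCC827 and −3.43 for H1975-OR over H1975, IFI44L, with −2.41 and 2.22, and IL11, with 2.13 and −2.30. CD24 is a surface antigen, IFI44L an interferon-stimulated gene and IL11 a cytokine. The difference between the lines was not tested, since each state has 1 library.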

How the results depend on the processing

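With library size alone, 1491 genes were at least 2-fold higher in HCC827-GR and 2368 in H1975-OR. With the deposited TPM the counts were 1172 and 2490, and 58.8% of the endpoint differences were already present between the parents. That share was 57.3% with a pseudocount of 0.1 and 50.8% with 5, and the share with parents within 0.5 on the log2 scale was 21.8% with a pseudocount of 5 and 19.9% at a minimum of 1 CPM. At a minimum of 50 CPM fewer genes entered, with 1077 higher in HCC827-GR, 921 higher in H1975-OR and 53.5% already present. The medians of 12 of the 35 lists turned sign in at least 1 alternative. In 3 of the 12, all with few members, the median had been at least 1 from 0: squamous markers were at −1.81 with a minimum of 1 CPM, and mucins at 6.39 and neural markers at 1.75 with a minimum of 50 CPM. The other 9 had medians within 0.5 of 0. With library size alone cholesterol synthesis went from 0.19 to −0.02, laminins and integrins from 0.07 to −0.14 and endoplasmic reticulum stress from 0.11 to −0.11, and with TPM these 3, leukocyte markers (−1.45) and reference genes (−0.10) were below 0. The NRF2 list turned with TMM over the pair alone (0.02) and uniquely mapping reads (0.19), and epithelial-mesenchymal transition factors (0.80), Wnt (−0.06) and TGF-beta (0.16) with another minimum. Of 228 named genes at least 2-fold apart, 22 came under 2-fold in some alternative, 14 of them with library size alone. Replicates could not be left out, as each state has 1 library. No paired analysis was possible because each group holds 1 library and the result comes from no test. Depth limits ratios where a library holds few reads, and the cause of the shifts with TPM was not tested.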

Other observations

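Runs of nearby genes that differed in one direction stood out when members were ordered by position, and the runs were chosen after the values were seen. On chromosome 7 the antiviral genes SAMD9 (9.48 CPM in HCC827-GR, 62.3 CPM in H1975-OR) and SAMD9L (4.24 and 29.1 CPM) lie in the same region as TFPI2, GNG11 and COL1A2, which were also lower in HCC827-GR. On the X chromosome the testis antigen gene CT45A1 had 0 reads in both HCC827 libraries and 57.6 CPM in H1975-OR, with 33% unique reads. Another X-linked run was higher in HCC827-GR. There the testis antigen genes MAGEA3 and MAGEA6 were at 15.9 and 14.1 CPM, from 0.328 and 0.620 CPM in parental HCC827, with 0 reads and 1 read in H1975-OR. GABRE and GABRQ, GABA receptor subunit genes nearby, were at 28.5 and 11.6 CPM, both with 0 reads in H1975-OR. In the protocadherin cluster of chromosome 5, PCDHB5 was at 0.450 and 16.2 CPM, PCDHB8 at 6.97 and 25.4 CPM and PCDHB16 at 5.36 and 29.1 CPM, while PCDHB2 was within 2-fold at 18.8 and 15.7 CPM. The members of these families resemble each other, so reads can be shared among them.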
